A study of Saccharomyces cerevisiae with 22 samples.

Results

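The features described here are the noncoding rows of total RNA in budding yeast (Saccharomyces cerevisiae) that remain once the ribosomal DNA (rDNA) and several named noncoding sets are set aside. They were chosen by name: rows above 0 in at least 1 library, leaving out reading frames, mitochondrial frames, XUT and antisense rows, snR rows, nuclear rRNA and its spacers, the RNAs LSR1, SCR1, RPR1, NME1 and TLC1, and spike-ins. This left 2282 of 18222 rows, and 8235 rows in all carried a name of this kind. By name prefix the 2282 fell into 17 classes. The largest were 652 named SUT and a whole number, 424 named CUT and a number, 259 named SUT and a decimal number, 232 named CUT_ and a locus, and 206 named by chromosome and number. Smaller ones were 135 named MUT, 112 nuclear tRNAs, 90 named mRNA_, 51 named cluster_, 50 named ncRNA_ and 45 named pre-mRNA_.

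The study asked how array length relates to the transcriptome, using haploid strains that differ in the number of rDNA repeats on chromosome XII. All strains shared the genotype MATa his3d1 lyp1d0 can1d::STE2pr-spHIS5. The libraries used here were made from total RNA without polyA selection, 1 for each strain with 72, 84, 118, 129, 147, 156, 197, 208, 224 and 237 repeats. These came from 4 strain series named CGY24 (72, 129 and 156 repeats), CGY29 (84), CGY20 (118, 147 and 237) and CGY28 (197, 208 and 224). Each array length was thus 1 strain and 1 library, so no value has a replicate and any p-value measures the spread between strains, whatever its source.

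Much of the yeast genome outside genes is transcribed by RNA polymerase II. In the usual reading of these names, which the files do not define, cryptic unstable transcripts (CUT) are trimmed by the nuclear exosome soon after they are made, and stable unannotated transcripts (SUT) survive longer. Transfer RNAs are made by RNA polymerase III, and several carry an intron next to the anticodon that is spliced out before the tRNA is used. The mitochondrial 15S and 21S rRNAs are encoded by the mitochondrial genome and form the cores of the small and large mitochondrial ribosomal subunits.

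The libraries held 6495626 to 7934346 reads over all rows, of which 93.5% to 94.4% lay in the rDNA and 377783 to 465429 lay outside it. The 2282 features took 6155 to 7741 reads per library, and between 689 (strain with 156 repeats) and 868 (strain with 208 repeats) of them were above 0. The library with 208 repeats had the highest sum for several small RNA sets, given below beside the tRNAs. Transcripts of LYP1, labelled as deleted, were at 0 to 1 read, whereas CAN1 had 24 to 36 and HIS3 15 to 43 reads, so CAN1 and HIS3, the latter a partial deletion, were read in every library. The 6 a-specific genes summed to 730 to 1022 reads, against 12 to 25 for 4 alpha-specific genes, of which 1 was at 0 in every library, and 1 to 11 for 6 sporulation genes.

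The tRNA rows with the most reads were tI(UAU)L and tI(UAU)D, the isoleucine tRNA genes with the anticodon UAU, and their sequences are shown because they are nearly the same and their reads depend on how like rows are told apart. Both were matched to RefSeq (build R64) by amino acid, anticodon and chromosome. The gene on the minus strand at chrXII:605300-605432 and the gene on the plus strand at chrIV:884361-884493 are each 133 bases long, with a 60-base intron between exons of 37 and 36 bases. The introns, in capitals, were identical, and the genes differed at 1 base, T119A, counted from 1 at the 5′ end of the gene with the base of tI(UAU)L first.
tI(UAU)L: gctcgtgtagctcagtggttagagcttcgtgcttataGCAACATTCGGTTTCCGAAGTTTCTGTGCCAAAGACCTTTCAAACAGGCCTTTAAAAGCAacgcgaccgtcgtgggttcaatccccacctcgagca
tI(UAU)D: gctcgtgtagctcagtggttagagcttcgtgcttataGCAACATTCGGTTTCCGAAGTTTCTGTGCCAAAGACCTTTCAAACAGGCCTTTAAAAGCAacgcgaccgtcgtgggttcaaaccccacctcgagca

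A second pair of sequences shows families whose copies are all alike, with the anticodon in capitals. All 16 RefSeq genes of the glycine tRNA tG(GCC) have the first sequence (the copy shown lies on the minus strand at chrII:197629-197699), and all 7 genes of the histidine tRNA tH(GUG) have the second (plus strand, chrV:207357-207428).
tG(GCC): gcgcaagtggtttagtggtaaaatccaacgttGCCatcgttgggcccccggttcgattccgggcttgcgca
tH(GUG): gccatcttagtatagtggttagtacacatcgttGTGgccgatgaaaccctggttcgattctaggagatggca

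Reads were concentrated in a few features, and most classes were barely above the limit of detection. A single feature, CUT_CGR192CTs2, held 19.8% of the 69601 reads of these features over all libraries, and the 10 with the most reads held 68.3%. At the other end, 679 features (29.8%) had 1 read over all 10 libraries together, and 1905 (83.5%) had at most 10. Only 139 were above 0 in every library, and 814 were above 0 in 1 library. By class, the 232 CUT_ features held 42.1% of the reads, the 2 mitochondrial rRNA rows 22.2%, the 51 cluster_ features 10.8%, and the 652 SUT features with a whole number 8.19%. The 424 numbered CUT features held 2.20%. The lengths of most of these features are not in the files, so counts rank them by reads and not by level per length.

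**Figure D1:**
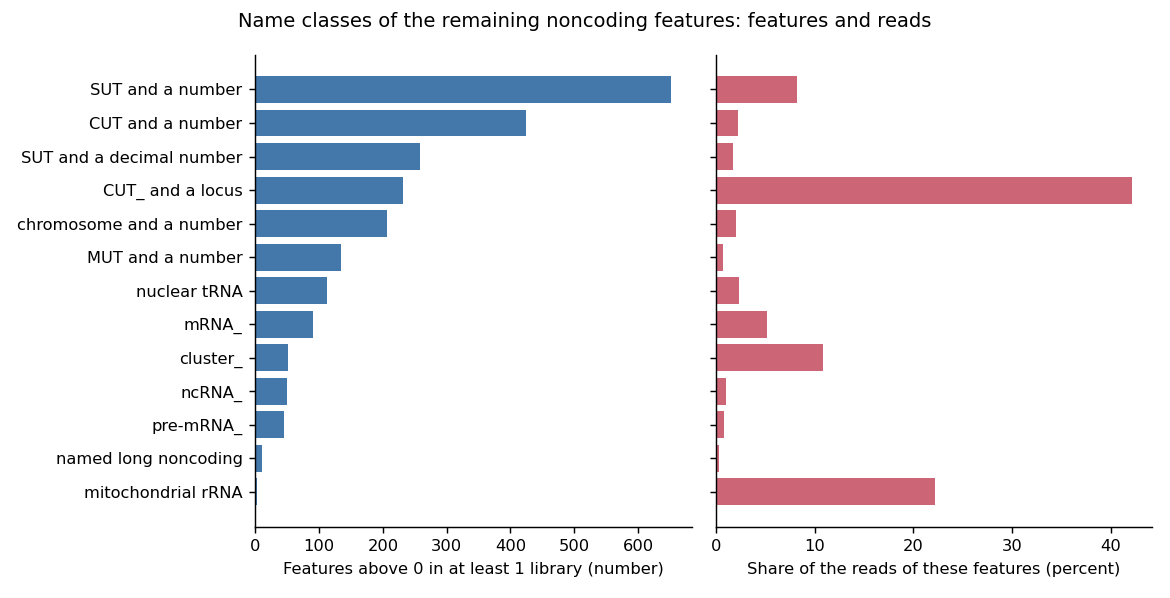
Number of features above 0 in at least 1 of 10 libraries (left, linear axis from 0) and share of the reads of all 2282 features in percent (right, linear axis from 0), for 13 name classes. The classes with most features hold few of the reads: 652 SUT features with a whole number hold 8.19%, and 232 CUT_ features hold 42.1%.

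A listed name was not detected equally often in each class. Of 847 SUT rows with a whole number, 652 (77.0%) were above 0, a share like that of named antisense rows (77.2%) and XUT rows (72.6%), and 45.8% of the 925 numbered CUT rows were. The shares were 42.3% of chromosome-numbered rows, 26.1% of SUT rows with a decimal, 15.5% of CUT_ rows, 13.8% of MUT rows and 6.98% of mRNA_ rows. Within the detected rows the median total over 10 libraries was 5 reads for SUT rows with a whole number, 2 for numbered CUT rows and 1 for MUT rows. A row at 0 says only that its count was 0 at this depth. Reads can be shared among similar rows, and whether shares below 1 read were rounded to 0 is not known here. A count of 0 allows up to 3 reads over the libraries together, by counting error.

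Summed over all 2282 features, the level moved little between strains. The normalised read count, which is the reads divided by each library's size factor as the authors deposited it, was lowest at 6405 in the strain with 84 repeats, had a median of 6863, and was highest at 7590 in the strain with 208 repeats. As a share of the reads outside the rDNA the features took 1.62% ± 0.0478 (SD, n = 10 strains), between 1.54% and 1.69%. The highest strain was the one with 208 repeats by normalised count and the one with 237 by share.

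The classes differed in how far their sums spread beyond counting error. SUT features with a whole number summed to 539 in the lowest strain (84 repeats), 554 at the median and 612 in the highest (208 repeats). This is a 1.13-fold range, and its dispersion index, the variance over strains divided by the variance that counting alone gives, was 0.853, so strains differed no more than counting error. Numbered CUT features ranged from 133 to 183 (median 147), chromosome-numbered features from 125 to 169 (median 145), and SUT features with a decimal from 102 to 151 (median 116), with indices of 1.51, 1.69 and 2.61. In all 3 of these classes the strains with 208 or 237 repeats were the highest.

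Sums of the CUT_, cluster_, mRNA_, pre-mRNA_, ncRNA_ and MUT classes had dispersion indices above 2, like SUT features with a decimal. So did the tRNA and mitochondrial rRNA sums described further on, and the few tRNA rows with a suffix (3.66). CUT_ features summed to 2623 in the lowest strain (147 repeats), 2794 at the median and 3472 in the highest (208 repeats), with an index of 21.5. The index rises with the number of reads for the same relative spread. Relative to its mean, the CUT_ sum had an SD over strains of 8.59%. That was above SUT with a whole number (3.83%) but below numbered CUT (9.88%), chromosome-numbered (10.7%) and decimal SUT sums (14.6%). These percentages include counting error, which is larger for sums of few reads. The CUT_ class held 29303 reads, against 1531 for numbered CUT, 1453 for chromosome-numbered and 1229 for decimal SUT. Their order therefore does not show which sums differ more between strains. The cluster_ features ran from 562 (147 repeats) through a median of 753 to 870 (118 repeats), with an index of 12.8. Features named mRNA_ ran from 295 to 419 (index 4.77), pre-mRNA_ from 32 to 83.3 (index 3.74), ncRNA_ from 49.9 to 94.5 (index 3.01) and MUT from 32 to 64.8 (index 2.36).

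The leading CUT_ features carry in their names the letters of highly expressed reading frames. In all, 432 features (18.9%) carry such letters, from 415 frames, all of which are listed in the same files, and these features held 59.4% of the reads. The files give no coordinates for them, so whether a feature overlaps the frame in its name, and on which strand, is not known here. Among the 34 of these features that passed the expression filter described below, the frame in the name stood at a median percentile of 97.6 by reads among 6154 frames, against 70.1 over all 432, and the feature held a median of 8.98 reads per 100 of the frame. Across all 432 pairs the reads of feature and frame had a Spearman rho of 0.36, a description only, since both come from the same libraries. Names of glycolytic frames, a list of 17 genes set up after the values were seen, occurred in 11 of 232 CUT_ features, and those 11 held 85.4% of the reads of the class. The 17 glycolytic frames themselves held 9.98% of all frame reads.

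CUT_CGR192CTs2 carries the letters of YGR192C, which is TDH3, a glyceraldehyde-3-phosphate dehydrogenase. Its normalised count was lowest at 1182 (197 repeats), had a median of 1328, and reached 1672 in the strain with 208 repeats, next to 1434 in the second highest. The frame itself ranged from 9429 (147 repeats) to 11708 (208 repeats), so both were highest in the same library, and the feature held 13.2 counts per 100 of the frame on average.

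CUT_CAL038WD2, named for CDC19 (pyruvate kinase), had the lowest dispersion index of the 9 features with most reads. It ran from 308 (72 repeats) through a median of 347 to 374 (197 repeats), with an index of 1.43, and the frame from 5741 to 7435. CUT_CKL152CTs2, named for GPM1 (phosphoglycerate mutase), ran from 145 (156 repeats) through 162 to 207 (208 repeats), with an index of 2.55, and the frame from 1683 to 2174. In these features the strains lay within a 1.43-fold range.

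CUT_CKL060CTs3-C had the highest index of the 9. Named for FBA1, the fructose-bisphosphate aldolase, it was at 113 in the lowest strain (129 repeats), 169 at the median and 435 in the highest (208 repeats), a 3.86-fold range with an index of 56.0. The strains with 208, 224 and 72 repeats, at 435, 367 and 257, stood above the other strains, which lay between 113 and 179. The FBA1 frame ranged only from 4137 to 4735.

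CUT_CHR174WTs2, named for ENO2 (enolase), also split the strains. It was at 34.3, 39.3, 40.7 and 56.5 in the strains with 208, 84, 224 and 237 repeats and between 85.6 and 131 in the other 6, with an index of 18.1. The frame was between 6593 and 8526, highest with 208 repeats, where the feature was lowest. CUT_CJR009CD3-D, named for TDH2, ranged from 13.3 (156 repeats) to 88.8 (237 repeats) with an index of 11.1.

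**Figure D2:**
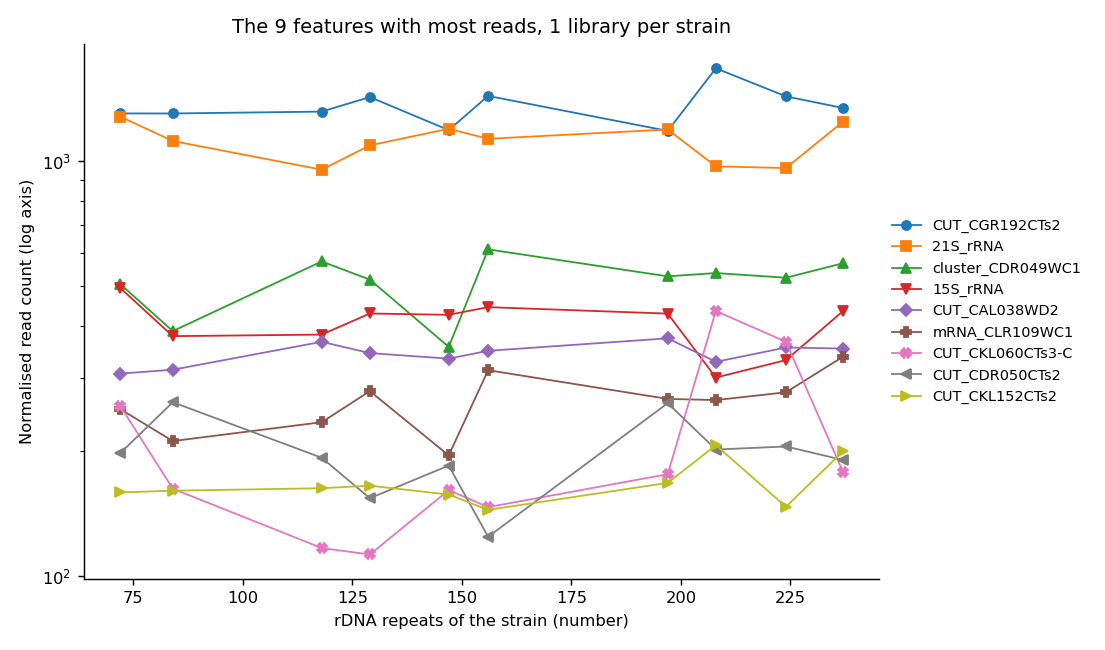
Normalised read count (log axis) against the number of rDNA repeats for the 9 features with most reads, 1 point per library and 1 library per strain, with lines joining the points of a feature. CUT_CAL038WD2 stays between 308 and 374, whereas CUT_CKL060CTs3-C lies between 113 and 435 and is highest in the strains with 208 and 224 repeats.

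The cluster_ class was led by cluster_CDR049WC1, at 357 in the lowest strain (147 repeats), 526 at the median and 613 in the highest (156 repeats). It carries the letters of YDR049W (VMS1, chrIV:553254-555152 in R64), whose own count was only 3.92 to 20.9. The next frame along the chromosome is YDR050C (TPI1, chrIV:555726-556472), the triose phosphate isomerase of glycolysis, and CUT_CDR050CTs2 carries its letters. TPI1 itself was at 44.4 to 267, with a mean of 133, and CUT_CDR050CTs2 at 125 to 263, with a mean of 198. The frame was assigned more counts than the feature named for it only in the strains with 129 and 147 repeats.

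The sum of these 3 rows varied less than each row. The indices were 12.8 for cluster_CDR049WC1, 8.72 for CUT_CDR050CTs2 and 37.8 for YDR050C, against 2.62 for the sum of the 3 rows, which ran from 783 to 933. In the strain with 147 repeats cluster_CDR049WC1 was lowest (357) and YDR050C highest (267). In the strain with 156 repeats the cluster row was highest (613) while CUT_CDR050CTs2 was lowest (125). The deposited values do not show how reads were shared among these rows, and whether such sharing sets their spread was not tested.

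**Figure D3:**
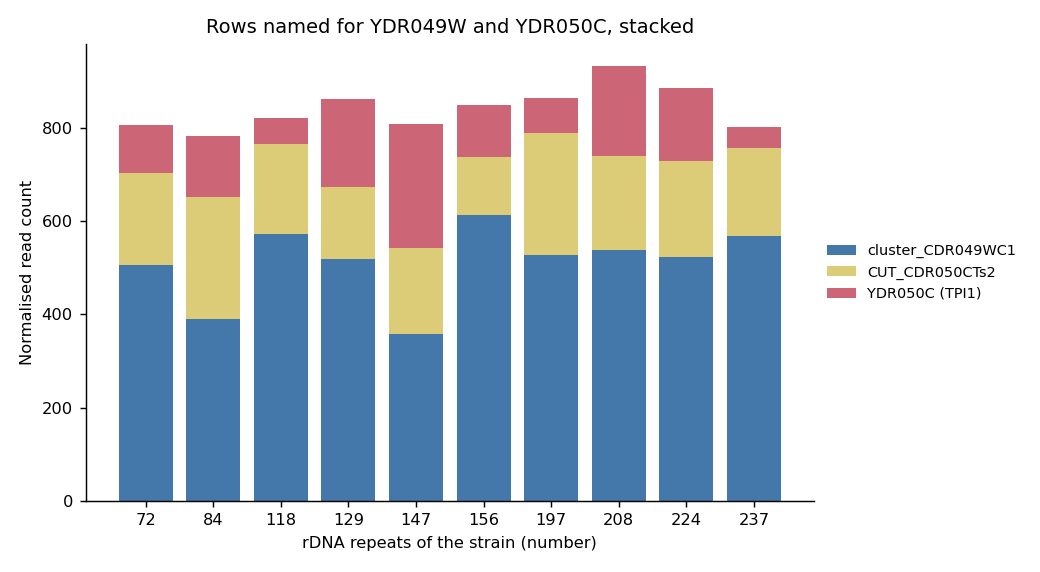
Stacked normalised read counts (linear axis from 0) of cluster_CDR049WC1, CUT_CDR050CTs2 and the frame YDR050C (TPI1) in each of 10 strains, ordered by repeat number. The segments change from strain to strain, from 357 to 613 for the cluster row and from 44.4 to 267 for the frame, while the height of the stack stays between 783 and 933.

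Similar sums were found for other pairs, though not for most. Of the 34 tested features with a frame in the name, 6 had a sum with that frame that was less dispersed than either row. One of them was cluster_CDR225WD2, named for HTA1 (histone H2A), with an index of 6.27 alone, 1.10 for the frame and 0.797 for the sum. That frame averaged 68.7 reads, against 10.6 for the feature. For pre-mRNA_CPL081WD3 and RPS9A, a ribosomal protein gene, the indices were 4.77 and 2.26, and 1.15 for the sum. For CUT_CIL051CD2 and MMF1, a mitochondrial protein gene, they were 3.39 and 2.36, and 1.24 for the sum. The fall was slight for CUT_CPL061WTs2, at 1.328 alone, 1.488 for the frame and 1.327 for the sum. How often sums of rows not paired by name fall below both was not tested. The feature was more dispersed than its frame in 14 of the 34 pairs. These pairs, like the 3 rows above, were singled out after their values were seen.

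The other leading cluster_ features were lower. Among them, cluster_CLR287CTs1 ran from 1.80 (72 repeats) through 12.3 to 22.5 (147 repeats) and cluster_COR181WC1 from 3 (118 repeats) through 12.3 to 25.9 (84 repeats). For cluster_CLR354CTs2, named for the transaldolase gene TAL1, the values were 22.2 to 39.2 with an index of 1.36.

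Among mRNA_ features, mRNA_CLR109WC1 held 73.5% of the reads of its class. It carries the letters of YLR109W (AHP1, a peroxiredoxin), which neighbours YLR110C (CCW12, a cell wall protein) on chromosome XII. Its count was lowest at 196 (147 repeats), had a median of 267 and was highest at 338 (237 repeats). AHP1 ranged from 807 to 1127 and CCW12 from 3097 to 4931. The feature and AHP1 summed to a row with an index of 5.91, below 7.33 and 11.2 for the rows taken singly.

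Several features were read in some strains and at 0 in others. Of 194 features with a mean of at least 2 reads, 12 (6.19%) were at 0 in at least 5 of 10 libraries, against 11 of 5682 other rows outside the rDNA (0.194%). The 2 sets are not matched for level, as 3444 frames average at least 10 reads, against 34 of the features described here. A row at 0 in many libraries passes the limit of 2 reads only through the libraries where it is high. The 2 shares therefore do not show a trait of these features. The equal rows MUT1047.1 and MUT1048.1 are both among the 12. The median dispersion index was 1.44 in the 194 and 1.27 in the other rows. By class it was 4.08 for 31 CUT_ and 4.27 for 15 cluster_ features, 7.57 for 3 MUT features and 3.89 for snR rows, but 0.762 for 66 SUT features with a whole number, 1.12 for 6 numbered CUT features, 0.950 for 16 chromosome-numbered features and 0.851 for XUT rows. Among classes with at least 10 such features, CUT_ and cluster_ had the highest medians. They also had more reads per feature, and the index rises with reads for the same relative spread. A mean of at least 10 reads was reached by 17 CUT_ and 7 cluster_ features, against 2 SUT features with a whole number and 0 chromosome-numbered ones. The medians therefore do not show that strains differ more, relative to level, in CUT_ and cluster_ features.

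**Figure D4:**
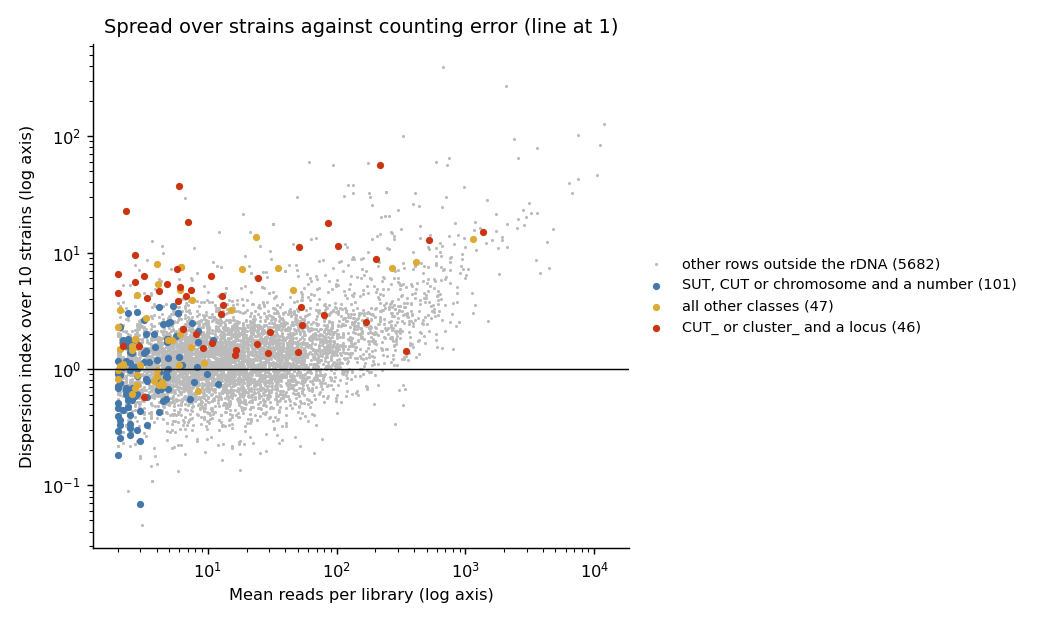
Dispersion index over 10 strains (log axis, 1 is counting error alone, marked by the line) against mean reads per library (log axis), for 194 features with a mean of at least 2 reads and, in grey, 5682 other rows outside the rDNA. Most CUT_ and cluster_ points (red) lie above the line, with class medians of 4.08 and 4.27, and SUT, CUT and chromosome-numbered points (blue) lie around it, with a median of 0.762 for SUT features with a whole number.

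The clearest pattern of reads in few strains was that of cluster_CPR102CD2, which carries the letters of the ribosomal protein gene RPL11A. It was at 46 with 118 repeats, at 14.5 with 197 repeats and at 0 in the other 8 strains. For cluster_CDR500CD3-A, named for RPL37B, the count was 22.6 in the strain with 208 repeats and 0 in the other 9. CUT_CFL031WD2, named for HAC1, the transcription factor of the unfolded protein response, was at 5.4 with 72 repeats, 13.1 with 129, 17.8 with 156 and 32.4 with 237, and at 0 in the other 6 strains. The cluster_ examples were chosen after their values were seen. The frames in these names were above 0 in every strain: RPL11A at 220 to 317, RPL37B at 155 to 195 and HAC1 at 107 to 155. Their dispersion indices were 2.57, 0.947 and 1.59. Whether the sharing of reads among similar rows sets the zeros was not tested.

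CUT_CMR205CD2, named for the phosphofructokinase subunit PFK2, was at 0 in the strain with 156 repeats and at 10.4 to 39.6 in the others. CUT_CER165WTs2, named for the poly(A)-binding protein gene PAB1, was at 0 in the strain with 129 repeats and at 5.56 to 23.2 in the others. In cluster_CBR011CTa1, named for the pyrophosphatase gene IPP1, the strains with 118, 129 and 197 repeats were at 0 and the other 7 at 5.4 to 13.6. In these 3 features the strains at 0 had neither the shortest nor the longest arrays.

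MUT1047.1 and MUT1048.1, named after their values were seen, were equal in every library. Their count was 12.6 with 72 repeats, 15.1 with 129, 10.8 with 147, 5.88 with 208 and 14.8 with 237, and 0 in the other 5 strains. Equal rows were common. Of 1208 features with at least 3 reads, 256 (21.2%) had the same value as another of these features in all 10 libraries, in 97 groups. Of those groups 73 joined features of different classes, 14 of them a numbered CUT and a numbered SUT, and 9 held tRNAs only. Equal rows cannot be counted as separate measurements, although rows of few reads can also be equal by chance.

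Nuclear tRNAs were thinly covered, with 1607 reads over all libraries in 112 of 278 listed rows. The tI(UAU) pair shown above held 584 of them (36.3%). tI(UAU)L was at 15.6 (156 repeats) to 64.7 (208 repeats), median 30.2, and tI(UAU)D at 3.11 (197 repeats) to 52.4 (129 repeats), median 18.3. The order of the rows changed between strains: tI(UAU)D was higher in the strains with 129 and 156 repeats, equal to tI(UAU)L in the strain with 72 repeats, and lower in the other 7. Since the genes differ at 1 base, which of them a read came from is uncertain, and their sum is the safer value: 29.5 in the lowest strain (84 repeats), 49.0 at the median and 115.7 in the highest (208 repeats).

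Rows that have a companion intron row were more often above 0. Of 60 such tRNA rows 48 (80%) were above 0, against 64 of 218 others (29.4%), and they held 957 of the 1607 reads, or 373 without the tI(UAU) pair. Rows of 1 family are not separate observations, since reads can be spread over all of them or left on 1. Without an intron, tK(CUU) had reads in 1 of 14 rows and tG(GCC) in 16 of 16. With an intron, tK(UUU) had reads in 1 of 7 and tP(UGG) in 10 of 10. How far this sets the 2 shares was not tested. The 60 intron rows themselves were at 0 in every library. Reads in the main row can come from precursor or mature tRNA, and these data do not separate them.

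Families of identical genes showed how reads were assigned. RefSeq holds 18 anticodon families of more than 1 gene that share 1 genomic sequence and match the files in number, and 9 of these had reads. In 7 of the 9 every row held the same value, among them the 16 rows of tG(GCC) with 128 reads in all and the 7 rows of tH(GUG) with 70. In the other 2 families a single row carried all reads: tK(CUU)K had 49 reads while 13 rows of the same RefSeq sequence were at 0, and tR(UCU)G2 had 42 while 10 were at 0. The sequences used for counting are not known here. Where they are those of RefSeq, a tRNA row in such a family measures the family, not the copy. In the glutamate family tE(UUC), tE(UUC)M differs at 1 base from its 13 relatives and had 33 of the 163 reads.

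Of the classes with more than 10 features, tRNA had the highest coefficient of variation of its sum over strains, 46.7%. It was lowest at 75.9 in the strain with 84 repeats, 141 at the median and 312 in the strain with 208 repeats, a 4.11-fold range with an index of 35.8. Without the tI(UAU) pair the range was 4.22-fold, from 46.4 to 196, with the same strains at the ends. The 5S rRNA rows, also made by RNA polymerase III, ran from 1586 in the strain with 84 repeats to 12725 in the strain with 208 repeats. The 5.8S rRNA rows ran from 39015 to 97077 with the same strains at the ends, and the snR rows from 9862 (197 repeats) to 13700 (208 repeats). After the strain with 208 repeats came those with 129 (247) and 118 (202) for tRNA, and those with 129 (6358), 147 (5931) and 118 (5216) for 5S rRNA. How far the recovery of short RNA in each library takes part in the tRNA sums was not tested.

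**Figure D5:**
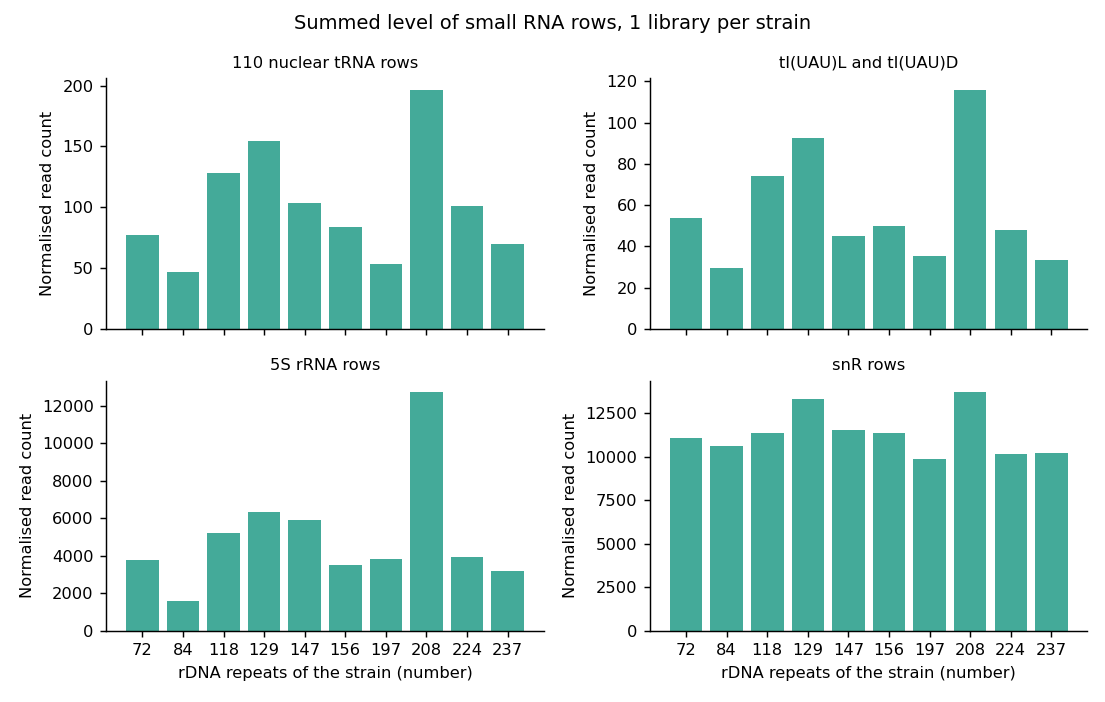
Summed normalised read counts (linear axes from 0) of 110 nuclear tRNA rows, of tI(UAU)L and tI(UAU)D, of the 5S rRNA rows and of the snR rows, in 10 strains ordered by repeat number. The strain with 208 repeats is highest in all 4 panels, and the strain with 84 repeats is lowest for the tRNA and 5S rRNA rows.

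The mitochondrial rRNA rows were the most abundant features not named for a locus. 15S_rRNA was lowest at 301 (208 repeats), had a median of 428 and was highest at 495 (72 repeats). 21S_rRNA was lowest at 953 (118 repeats), had a median of 1124 and was highest at 1279 (72 repeats). In the strains with 118, 208 and 224 repeats 21S_rRNA lay at or below 971, and in the other 7 at or above 1091.

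Both genes are listed more than once. The row Q0020, which RefSeq gives as the locus of the 15S rRNA, held the same reads as 15S_rRNA in 10 of 10 libraries. The row Q0158_noncoding_exon, of the 21S locus, differed from 21S_rRNA by 1 read in 1 library. Summed over its rows and divided by exon length, the 15S rRNA stood at 492 ± 69.5 normalised counts per kb (SD, n = 10 strains; 1649 bases) and the 21S rRNA at 710.0 ± 81.5 (3296 bases). The ratio of 21S to 15S per kb was 1.45 ± 0.120 (SD), from 1.29 (118 repeats) to 1.66 (208 repeats), above 1 in all 10 strains.

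The other mitochondrial rows moved in part alongside. Mitochondrial frames without the rRNA loci summed to 298 in the strain with 208 repeats, the lowest, where 15S_rRNA was also lowest, and to 636 with 237 repeats, the highest. Fewer mitochondrial transcripts per cell and fewer cells rich in them cannot be told apart in bulk RNA. RPM1, the RNA subunit of mitochondrial RNase P, had 13 reads over all libraries, at 0 to 2.70 per strain. Among 24 mitochondrial tRNA rows, tM(CAU)Q1 alone was above 0, with 1 read in the strain with 224 repeats.

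The named long noncoding RNAs were low. Per kb, RME2 (chrVII:141898-144120), antisense to the meiotic regulator gene IME4, stood at 4.08 normalised counts, from 5 counts in the lowest strain (118 repeats) through 8.84 to 15.3 in the highest (72 repeats) before division by length. SRG1 (chrV:322212-322762), which is transcribed across the SER3 promoter, stood at 9.40 per kb, from 0.981 counts (208 repeats) through 4.31 to 10.4 (224 repeats). ICR1 (chrIX:393884-397082), transcribed across the promoter of the flocculin gene FLO11, stood at 1.83 per kb, with 2.07 to 9.25 counts. These 3 were above 0 in every library, with indices of 1.13, 1.76 and 1.07. The median frame stood at 10.3 counts per kb, and 46.4% of frames lay below SRG1, 20.9% below RME2 and 9.78% below ICR1.

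The remaining named RNAs had at most 5 reads over all libraries. IRT1, upstream of the meiotic inducer gene IME1, had 5 reads in 5 libraries. PWR1, the counterpart of ICR1 at FLO11, had 1 read, as did RUF20. RME3 and RNA170 had 4 reads each. RUF5-1 and RUF5-2, a pair of equal length at 710 bases, held equal values with 5 reads each. At this depth their differences between strains were not detectable.

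The smallest classes can be named in full. The tRNA rows with a suffix were tE(UUC)K_noncoding_exon and tE(UUC)G1_noncoding_exon with 9 reads each and equal values, tI(UAU)D_noncoding_exon with 8, tQ(UUG)E2_noncoding_exon with 2 and tI(UAU)L_noncoding_exon with 1. The other_ rows were other_CtL(UAG)L1D1-A with 6 reads, other_CtV(AAC)K1C1 with 4, other_CGR122WTs1 with 2, and other_CDR079WC2 and other_CIL029CTs1-B with 1 each. The silent mating locus row HMR and the telomere row TEL08L-YP had 1 read each.

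The design compares strains along array length, and no tested feature of these classes passed the test. A slope of log2(normalised count + 1) per 100 repeats was fitted with limma over 4013 features that passed an expression filter. Of all 4013, 1 (0.0249%) passed an adjusted p of 0.05, the frame YDR154C, and among the 51 tested noncoding features described here 0 did, the lowest adjusted p being 0.988. No feature was called in the fit that had strain series as a term, or without the strain with 72 repeats. At an unadjusted p under 0.05 there were 3 of 51 (5.88%) and 188 of 4013 (4.68%). The edgeR quasi-likelihood and DESeq2 tests on whole reads also called 0 of these features. In simulated data the limma fit recovered 25%, 82% and 100% of slopes of 0.5, 1 and 2 on the log2 scale per 100 repeats, over all 4013 features. Many slopes were planted there, which makes the adjusted threshold easier to pass than in the real data with 1 call. The simulated rows were also independent, with no strain series and no sharing of reads. These rates can therefore be higher than the recovery in the real data. Recovery was not measured for the 51 alone, which had fewer reads (a median of 16.3 per library, against 26) and a larger spread. The 51 (2.23% of the 2282) held 80.7% of the reads, and the rest were too low to be tested.

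Among the 51, slopes were positive in 32 and negative in 19, with a median of 0.07, where the median of all 4013 was -0.00 and 1994 were positive. The median of the 51 was 0.01 without the strain with 208 repeats, 0.01 without that with 224, 0.02 without that with 237 and 0.03 with strain series as a term. By class, 15 of 19 CUT_ features had positive slopes (median 0.11) and 8 of 10 cluster_ features did (median 0.13). The CUT_ median was -0.0043 without the expression filter and 0.06 without the strain with 237 repeats. For cluster_ it was -0.0061 when the strain with 72 repeats was left out and 0.25 when that with 224 was. The other classes had 1 to 3 tested features each. Features that share reads with others are counted singly here, and none of these slopes passed the test.

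The 3 features with an unadjusted p under 0.05 had positive slopes. CUT_CLR432WD2, named for the IMP dehydrogenase gene IMD3, had 3.60 counts with 72 repeats, 3.34 with 156 and 7.15 to 13.7 in the other 8 strains, and a slope of 0.75 ± 0.31 (SE) with a limma p of 0.988 after adjustment. For mRNA_CLR109WC1 the slope was 0.24 ± 0.10. The slope of pre-mRNA_CFL039CTs3-B, named for the actin gene ACT1, was 1.62 ± 0.70; it was at 0 with 72 repeats and at 8.80 to 39.2 in the other strains, and the slope without that strain was 0.55. With strain series as a covariate these slopes were 0.37, 0.47 and 2.49.

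Positive slopes that came next in CUT_ were 0.12 ± 0.10 for CUT_CKL152CTs2 and 0.48 ± 0.36 for CUT_CKL060CTs3-C, which fell to 0.04 with strain series in the model. The lowest-p negative slopes were -0.28 ± 0.22 for CUT_CJL130CTs2, named for the pyrimidine synthesis gene URA2, -0.50 ± 0.42 for CUT_CHR174WTs2 and -0.18 ± 0.21 for CUT_CIL051CD2. In the cluster_ class the slopes were 1.27 ± 0.74 for cluster_CAL012WTs2, named for CYS3, 0.61 ± 0.39 for cluster_CLR287CTs1 and 0.16 ± 0.11 for cluster_CDR049WC1. The negative ones were -1.22 ± 0.61 for cluster_CDR225WD2, at 0 in the strain with 237 repeats alone, and -0.57 ± 0.41 for cluster_COR181WC1, named for the actin assembly gene LAS17. The mitochondrial rRNA rows had slopes of -0.16 ± 0.09 (15S_rRNA) and -0.05 ± 0.08 (21S_rRNA). With strain series as a term, cluster_CDR225WD2 had a slope of -2.43, cluster_COR181WC1 -0.093, cluster_CAL012WTs2 0.62, CUT_CHR174WTs2 -0.87, CUT_CIL051CD2 -0.031 and 15S_rRNA -0.020. Single strains moved them too: without the strain with 237 repeats cluster_CDR225WD2 was at -0.41, and without that with 84 cluster_COR181WC1 was at -0.31. Without the strain with 72 repeats, cluster_CLR287CTs1 was at -0.082.

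Over the 51 tested features the median spread, the SD over strains of log2(normalised count + 1), was 0.54. Counting alone would give 0.35 at the same levels. The expression filter can add to this excess, since a row of few reads passes only if it is high in some libraries. MUT1047.1, with a mean of 6.2 reads and a dispersion index of 7.57, passed. SUT504, with a mean of 7.8 reads and an index of 0.774, did not. How much the filter adds was not tested. For all 4013 tested features the median spread was 0.30 where counting gives 0.28. In CUT_ features the median spread was 0.41 against 0.20 from counting, and in cluster_ features 0.81 against 0.41. Among features that passed the filter, the largest spreads were those of CUT_CFL031WD2 (2.12), CUT_CMR205CD2 (1.58) and CUT_CER165WTs2 (1.32) among CUT_ features and cluster_CAL012WTs2 (1.71), cluster_CBR011CTa1 (1.66) and cluster_CDR225WD2 (1.34) among cluster_ features, all with at least 1 strain at 0. In contrast SUT802, the numbered SUT with most reads, had a spread of 0.33 where counting gives 0.40.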

How the data were processed

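Total RNA was sequenced without polyA selection, with a strand-specific kit per the labels' protocols. The submitters' processing notes name the sacCer3 build and the tools bcl2fastq, DESeq2 and Salmon 0.8.1. Their settings were not stated there. The deposited signal is a read count divided by a size factor: in each library 100% of values were within 0.001 of a whole multiple of 1 step, which gave the reads and their depth. Salmon shares reads among similar rows, so values of similar rows are not independent. The deposited values are whole multiples, so shares of reads may have been rounded, which is not known here. The polyA libraries were not used.

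Slopes on repeat number were fitted with limma 3.58.1 (trend, robust) on log2(value + 1) in R 4.3.3, over rows that passed edgeR's filterByExpr on the recovered reads, without 53 rDNA rows, with Benjamini-Hochberg adjustment over all of them. edgeR 4.0.16 and DESeq2 1.42.0 on recovered reads, other pseudocounts, filters, scalings, strain series, log2 of repeat number and leaving out each strain were alternatives. The fit was tested on simulated data of 4013 features, in which 3 unchanged ones were called. The dispersion index is the variance of reads over strains, allowing for size factors, divided by its expectation from counting; counting intervals cover no other error. Summaries used Python 3.11.15 and pandas 2.3.3. Sequences, positions and symbols come from RefSeq R64, the sequence behind sacCer3. Features named in the text are any called, in classes with at least 10 tested features the 5 highest, the 3 of lowest p in each direction and the 3 of largest spread, and all of the smallest classes; others are named after their values were seen. The members, classes and lists were chosen with earlier results of these data known. A feature that the rule names is not reported here.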

Additional observations from a re-analysis of the deposited data

Results flagged for a closer look

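Among 64 sets of 10 strains checked (class sums and tested features), 2 had 1 strain far from the other 9 by Dixon's 95% criterion, which chance meets in about 1 set in 20. Both times it was the strain with 208 repeats, whose sum over all rows outside the rDNA was also the highest, at 454902. CUT_CGR192CTs2 was at 1672 there, with the next strain at 1434. The sum of SUT features with a whole number was 612 there, with the next at 577. Over the 10 strains that sum had a dispersion index of 0.853, so strains differed no more than counting error.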

How the results depend on the processing

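No feature of these classes was called under any alternative but one: without a filter, CUT_CNL220WD2 was called, so the count was 1, and that of all features was 4. CUT_CNL220WD2 had 2 to 8.10 counts in the 4 strains of up to 129 repeats and 0 in the other 6, over 20 reads in all. Over all tested features the count was 2 with a pseudocount of 5, 3 with edgeR, 2 with DESeq2 and 0 once strain series was a term, and 0 to 2 when each strain was left out; without the strain with 72 repeats YDR154C was no longer called. The direction of an uncalled slope changed for CUT_CJL130CTs2 (0.16) and 21S_rRNA (0.061) with strain series, and without the strain with 72 repeats for cluster_CLR287CTs1 (-0.082, where leaving out others gave up to 0.84) and 21S_rRNA (0.014, where leaving out others gave down to -0.14). The median spread of 0.54 became 0.43 with a pseudocount of 5, 0.48 without a filter, where rows at 0 or 1 read enter, and 0.29 for features with a mean of at least 50 reads. The features took 0.0954% of all listed reads and summed to 6846 normalised counts. Of 576 recomputed values 530 kept their direction and their side of the threshold or moved by less than the spread. No paired analysis was possible because only total RNA libraries, 1 per strain, were compared with each other. Depth limits most features, which hold few reads.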
